A study of Mus musculus with 36 samples.

Results

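Genes that mark T cells and natural killer (NK) cells were followed through mouse liver and liver tumours, 10 in all: *Cd3d*, *Cd3e*, *Cd3g*, *Cd4*, *Cd8a*, *Thy1*, *Lck*, *Gzma*, *Gzmb* and *Nkg7*. Members were taken by symbol, as every probe on the array that names one of the 10 genes. Of 25697 probes, 9 did so, 1 for each of 9 genes, and no probe carried the symbol *Lck*, the kinase that starts T cell receptor signalling, which was therefore not analysed here. The array named 16593 genes in all.

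RNA came from livers and liver tumours of FVB/n mice and was measured on 36 single-colour bead arrays, 1 per sample, in 10 groups. Tumours belonged to 2 models named for their driver genes, AKT-CAT (where CAT is read as beta-catenin, which the labels leave unspelled) and AKT-NRAS. AKT-CAT tumours were taken without treatment (Tu_AKTCAT, 4 samples), under DDC, an agent known to injure bile ducts (Tu_AKTCAT_DDC, 4 samples), and under CCl4, an agent known to injure hepatocytes (Tu_AKTCAT_CCl4, 4 samples). Liver labelled non-tumoral in the AKT-CAT model was taken under the same conditions (NonTu_AKTCAT, 3 samples, NonTu_AKTCAT_DDC, 3 samples, and NonTu_AKTCAT_CCl4, 4 samples). AKT-NRAS tumours were taken without treatment (Tu_AKTNRAS, 4 samples) and under DDC (Tu_AKTNRAS_DDC, 4 samples). Controls without driver genes were liver given PBS (PBS_only, 3 samples) and liver given DDC (DDC_only, 3 samples). The labels give neither the age of the mice, the doses, the delivery of the driver genes, nor whether each sample was an animal of its own, and each p-value measures only the spread between samples. No AKT-NRAS group of non-tumoral liver was among the samples.

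Between 41.6% and 51.0% of probes were detected per array. Precision is limited by how many arrays there were. Of 10 hepatocyte markers, all passed the detection filter and 7 were detected on every array. The arrays lay on 5 slides. The 8 AKT-NRAS arrays shared slide 4 and the 8 CCl4 arrays shared slide 5, whereas comparisons of these arrays with those of any other slide leave slide and group confounded, so that they cannot be told apart. This holds for the 2 tumour models against each other, AKT-NRAS tumours against PBS, and CCl4 against no treatment. The PBS, DDC and untreated AKT-CAT arrays lay on slides 1 to 3, which Tu_AKTCAT_DDC (slides 1 and 2) and Tu_AKTCAT (slides 2 and 3) bridged, so comparisons among them could also be fitted with slide as a block.

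The CD3 chains gamma, delta and epsilon pair into the dimers that carry the T cell receptor's signal into the cell, and they are the most specific marks of the T cell lineage. CD4 and CD8 are the coreceptors that read MHC class II and class I. Granzymes A and B are the proteases of cytotoxic granules, and NKG7 is a granule membrane protein shared by NK cells and cytotoxic T cells. THY1 is a surface glycoprotein of all mouse T cells that neurons and some fibroblasts also carry. Healthy liver holds resident T and NK cells in its sinusoids, and T cells can be drawn into injured or tumour-bearing liver.

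The genes *Cd3g*, *Cd3d* and *Cd3e* stood side by side on chromosome 9 in the RefSeq annotation (GRCm38.p6). The starts of *Cd3g* (minus strand) and *Cd3d* (plus strand) lay 1355 bases apart and pointed away from each other, and that of *Cd3e* (minus strand) lay 27825 bases from that of *Cd3d*. Their promoter windows, from 250 bases before to 50 after the start, are shown because the 3 genes deviated together from array to array. That of *Nkg7* is shown for comparison. Its deviations correlated with those of *Cd3d* (Pearson r = 0.584) and *Cd3e* (0.455, where the Spearman correlation did not pass). With *Cd3g* (0.273) the correlation did not pass. The sequences are from RefSeq (GRCm38.p6). Capitals mark matches on either strand to 2 motifs, the E-box CANNTG and the RUNX core TGTGGT, which did not overlap each other.
Cd3g, chr9:44980382-44980681, minus strand: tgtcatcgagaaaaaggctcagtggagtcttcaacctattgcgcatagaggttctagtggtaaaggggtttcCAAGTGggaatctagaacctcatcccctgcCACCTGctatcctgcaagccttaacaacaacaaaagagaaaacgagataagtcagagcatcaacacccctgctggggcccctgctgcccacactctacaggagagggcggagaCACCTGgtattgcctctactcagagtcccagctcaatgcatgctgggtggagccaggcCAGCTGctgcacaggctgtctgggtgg
Cd3d, chr9:44981536-44981835, plus strand: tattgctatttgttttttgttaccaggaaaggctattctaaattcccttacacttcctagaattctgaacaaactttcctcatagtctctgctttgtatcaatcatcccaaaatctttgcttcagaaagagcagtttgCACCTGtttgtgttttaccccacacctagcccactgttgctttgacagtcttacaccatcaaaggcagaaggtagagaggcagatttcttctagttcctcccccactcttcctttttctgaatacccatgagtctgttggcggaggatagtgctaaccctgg
Cd3e, chr9:45009562-45009861, minus strand: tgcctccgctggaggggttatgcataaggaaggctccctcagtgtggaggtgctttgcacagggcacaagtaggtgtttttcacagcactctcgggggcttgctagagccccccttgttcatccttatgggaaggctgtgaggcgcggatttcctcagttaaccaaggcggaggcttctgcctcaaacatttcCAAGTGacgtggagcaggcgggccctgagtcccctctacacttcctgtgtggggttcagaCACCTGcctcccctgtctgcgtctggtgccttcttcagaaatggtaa
Nkg7, chr7:43436888-43437187, plus strand: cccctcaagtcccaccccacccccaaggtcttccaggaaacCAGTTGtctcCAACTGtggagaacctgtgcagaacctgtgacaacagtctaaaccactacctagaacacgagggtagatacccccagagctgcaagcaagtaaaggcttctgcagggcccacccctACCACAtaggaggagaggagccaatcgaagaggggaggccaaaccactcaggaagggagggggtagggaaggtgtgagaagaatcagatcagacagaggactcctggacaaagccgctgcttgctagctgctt
The E-box letters occurred 4 times in the window of *Cd3g*, 1 time in that of *Cd3d*, 2 times in that of *Cd3e* and 2 times in that of *Nkg7*. Of 32851 promoter windows of this length, 72.3% held at least 1 such match. The RUNX core occurred 1 time in the *Nkg7* window and in none of the CD3 windows, against 16.8% of all windows. The ETS core GGAA, searched as well but not capitalised, occurred 2, 6, 5 and 4 times in the order printed, and 96.0% of all windows held it. These matches describe letters and not binding sites.

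Detection divided the 9 measured genes into 2 kinds. A probe was counted as detected on an array where the detection p-value in the deposited table was under 0.05. *Thy1* was detected on all 36 arrays, *Cd3e* on 29, *Cd3d* on 28, *Cd3g* on 26 and *Nkg7* on 12. The coreceptors *Cd4* and *Cd8a* and the granzymes *Gzma* and *Gzmb* were detected on 0 of 36 arrays, with lowest detection p-values of 0.0689, 0.2895, 0.0589 and 0.1353. Their background-subtracted signals reached at most 13.1, 4.29, 16.9 and 7.24 intensity units, where the lowest detected probe of an array stood at 11.7 to 42.2 units. Among the members T cells are thus seen through *Cd3d*, *Cd3e*, *Cd3g* and *Thy1*, and no level of *Cd4*, *Cd8a*, *Gzma* or *Gzmb* was measurable. The label of the set was borne out for T cells by the CD3 genes alone, and for NK cells by no member that T cells lack.

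**Figure D1:**
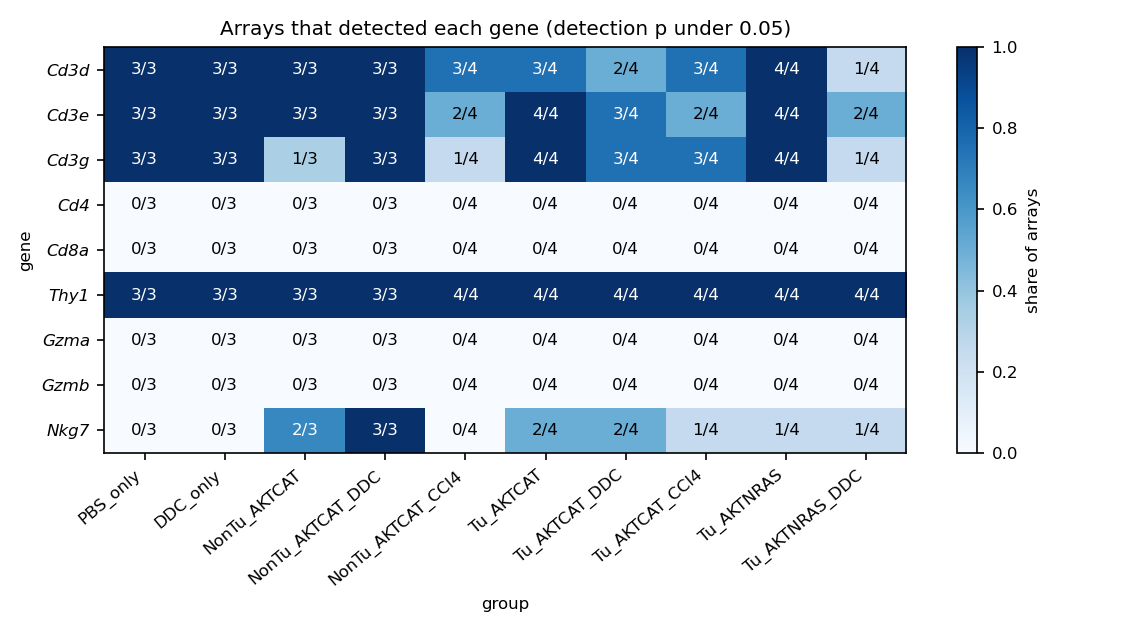
Number of arrays per group on which each of the 9 genes with a probe was detected (columns, groups; rows, genes; shade, share of arrays). Thy1 was detected on all 36 arrays, Cd4, Cd8a, Gzma and Gzmb on none, and the CD3 genes on 1 or 2 of 4 arrays in Tu_AKTNRAS_DDC.

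The CD3 genes were detected on every PBS_only, DDC_only, NonTu_AKTCAT_DDC and Tu_AKTNRAS array. In Tu_AKTNRAS_DDC, by contrast, *Cd3d* and *Cd3g* were detected on 1 of 4 arrays each and *Cd3e* on 2 of 4. *Cd3g* was also sparse in NonTu_AKTCAT (1 of 3 arrays) and NonTu_AKTCAT_CCl4 (1 of 4 arrays). *Nkg7* was detected on 3 of 3 NonTu_AKTCAT_DDC arrays and 2 of 3 NonTu_AKTCAT arrays, and on none of the PBS_only, DDC_only and NonTu_AKTCAT_CCl4 arrays. Its detection also went with slide. PBS_only and DDC_only lay on slide 1, where no array detected it, and NonTu_AKTCAT_DDC lay on slide 2. In Tu_AKTCAT_DDC replicates 1 and 2, on slide 1, did not detect it, and replicates 3 and 4, on slide 2, did. The part of slide in this pattern was not tested.

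All levels below are log2 intensities after background correction and quantile normalization, and each gene is compared only with itself. The 5 genes detected on at least 3 arrays entered the tests, and the 4 others did not. All group means of *Cd3d* lay between 6.46 ± 0.68 (SD, n = 3) in NonTu_AKTCAT and 4.82 ± 0.22 (SD, n = 4) in Tu_AKTNRAS_DDC. The 5 groups of non-tumoral or control liver took the 5 highest means of *Cd3d*, and the 5 tumour groups the 5 lowest. Neighbouring groups in that order overlapped throughout, for *Cd3d* as for the other 4 genes. The split did not hold with arrays scaled to a common median in place of quantile normalization. Tu_AKTNRAS then had the highest mean of *Cd3d* (6.184), *Cd3e* (6.144), *Cd3g* (6.448) and *Thy1* (8.465) among the 10 groups.

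*Cd3e* was highest in NonTu_AKTCAT_DDC at 6.22 ± 0.37 (SD, n = 3) and lowest in Tu_AKTNRAS_DDC at 4.97 ± 0.29 (SD, n = 4). *Cd3g* ran from 6.12 ± 0.08 (SD, n = 3) in PBS_only to 4.88 ± 0.45 (SD, n = 4) in Tu_AKTNRAS_DDC, and its second highest mean, 6.08 ± 0.46 (SD, n = 4), was that of the untreated tumours of that model. For *Thy1* the highest mean was 8.71 ± 0.19 (SD, n = 4) in NonTu_AKTCAT_CCl4 and the lowest 6.17 ± 0.61 (SD, n = 4) in Tu_AKTNRAS_DDC. Hence DDC-treated AKT-NRAS tumours had the lowest mean of all 4 T cell genes among the 10 groups. *Nkg7* followed another order, from 5.68 ± 0.80 (SD, n = 3) in NonTu_AKTCAT to 4.67 ± 0.31 (SD, n = 4) in Tu_AKTNRAS.

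**Figure D2:**
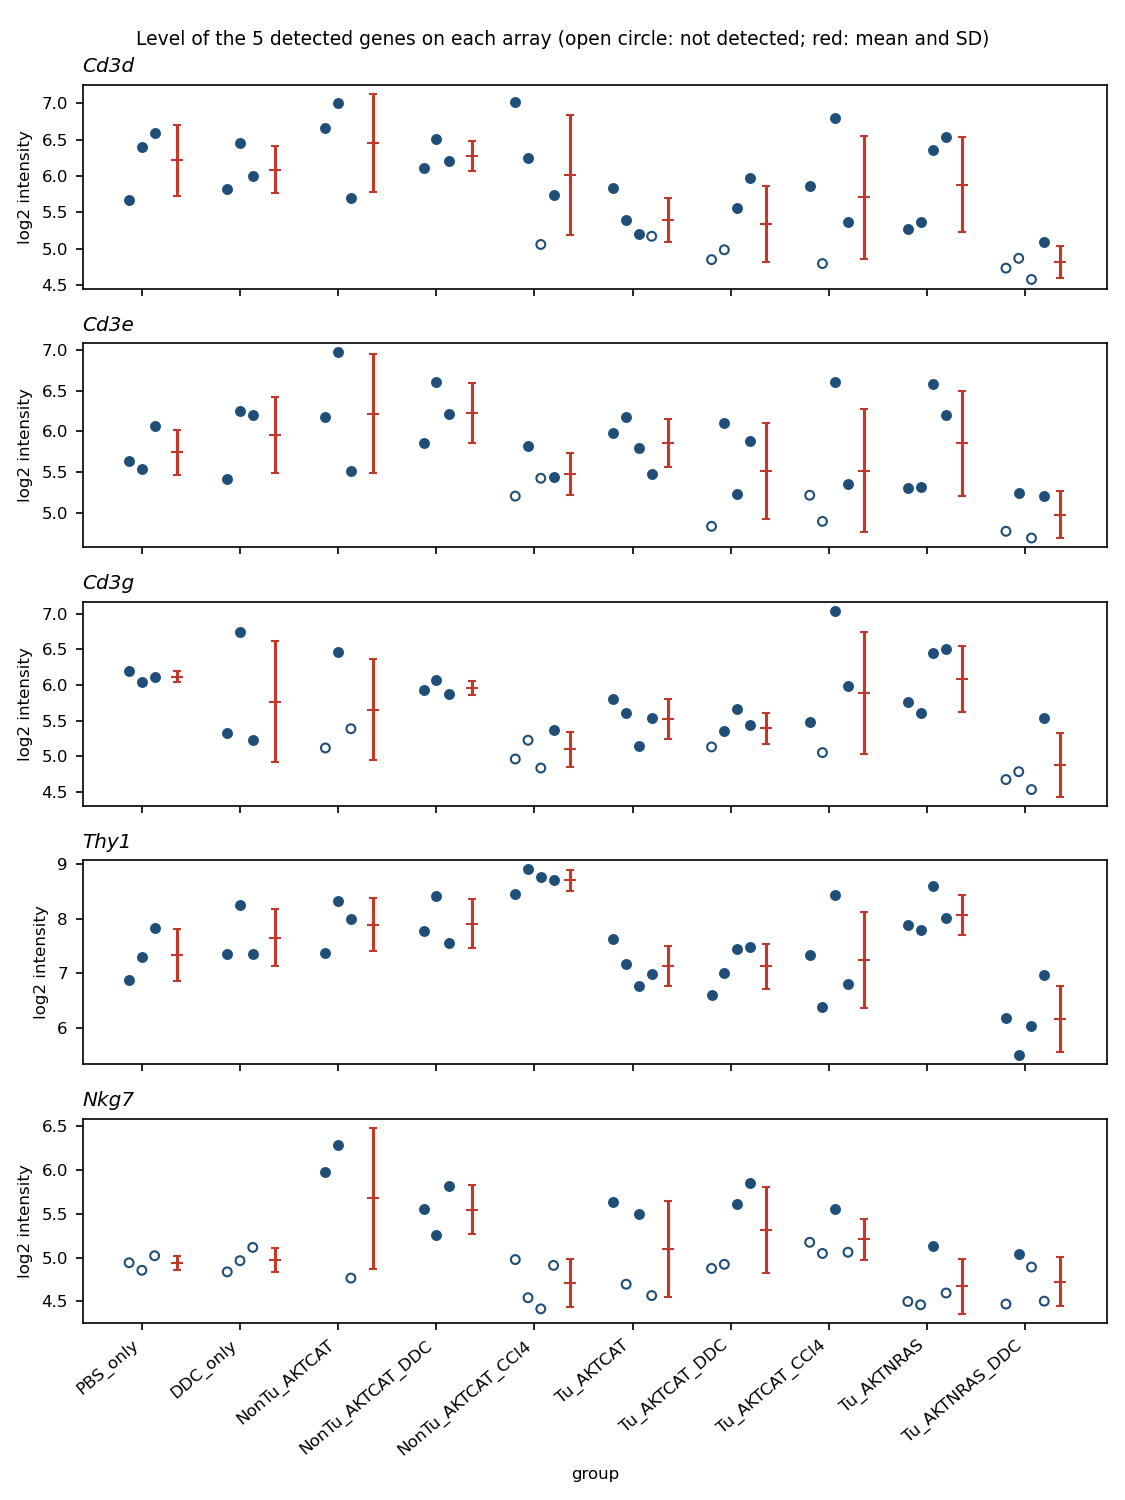
Level of each of the 5 detected genes on all 36 arrays (vertical axes, log2 intensity; horizontal axis, groups; filled points, detected; open points, not detected; red, mean and SD of the group). Tu_AKTNRAS_DDC has the lowest mean of Cd3d, Cd3e, Cd3g and Thy1, and NonTu_AKTCAT_CCl4 the highest mean of Thy1.

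The groups were compared in 14 pairs in 1 limma fit across all 10765 genes that could be tested, and a gene was called where its Benjamini-Hochberg adjusted p was under 0.05. This gave 70 tests of the 5 genes, of which 5 were called, 4 for *Thy1* and 1 for *Nkg7*. *Cd3d*, *Cd3e* and *Cd3g* were called in 0 of their 42 tests, of which 7 had an unadjusted limma p under 0.05. Because tissue was measured in bulk, fewer T cells and less RNA per T cell cannot be told apart in any of them.

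DDC in AKT-NRAS tumours gave the member difference with the smallest adjusted p among the 70, a fall of *Thy1*. Its levels were 7.88, 7.80, 8.61 and 8.03 on the 4 untreated arrays and 6.17, 5.50, 6.04 and 6.97 on the 4 DDC arrays. Every untreated array was above every DDC array. The difference was -1.91 ± 0.34 on the log2 scale (SE of the fit), 3.75-fold lower, with a limma adjusted p of 0.00114, and it stayed called under all 19 alternatives, with adjusted p from 0.000276 to 0.0129. In this comparison 1.43% of all genes were called lower, and *Thy1* was the 1 member of 5 among them.

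The 3 CD3 genes lay lower under DDC on every array of these tumours but did not pass the test. *Cd3g*, the gamma chain, stood at 5.76, 5.60, 6.44 and 6.50 without DDC and at 4.67, 4.78, 4.53 and 5.53 with it, and only the last of the DDC arrays detected it. The difference was -1.20 ± 0.33 with a limma adjusted p of 0.054. The adjusted p ran from 0.0039 to 0.222 over the alternatives, and *Cd3g* was called in 4 of 19. One library weighed on this from each side: without Tu_AKTNRAS replicate 2 the adjusted p was 0.0303, and without Tu_AKTNRAS_DDC replicate 4 it was 0.0331.

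*Cd3d*, the delta chain, stood at 5.28, 5.36, 6.36 and 6.54 without DDC and at 4.73, 4.87, 4.58 and 5.09 with it (difference -1.07 ± 0.38, limma adjusted p = 0.159). *Cd3e*, the epsilon chain, stood at 5.30, 5.32, 6.58 and 6.20 without DDC and at 4.77, 5.24, 4.69 and 5.20 with it (difference -0.88 ± 0.34, limma adjusted p = 0.213). Replicates 3 and 4 of the untreated tumours were the highest for all 3 CD3 genes. The groups overlapped for none of *Cd3d*, *Cd3e*, *Cd3g* and *Thy1*, as was so in the lower direction for 5.97% of all genes. *Nkg7* differed by 0.05 ± 0.27 (limma adjusted p = 0.992), with 1 of 4 arrays detecting it in each group.

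The scaling of arrays changed these calls. Before normalization the median signal was 46.17, 11.68, 27.73 and 33.18 units on the arrays without DDC. It was 15.36, 14.92, 11.01 and 14.11 units on those with DDC, and the part of this in the differences was not tested. When arrays were scaled to a common median in place of quantile normalization, the median of all genes itself moved to -0.23, and *Cd3d*, *Cd3e* and *Cd3g* were called with adjusted p of 0.0145, 0.0255 and 0.0039. Relative to that median the differences were -1.17, -0.96 and -1.35, and that of *Thy1* was -1.995.

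Other genes of T cells and their neighbours were read from lists. Of 23 further T cell genes that could be tested, 0 were called higher and 3 lower, with a median difference of -0.42 against 0.01 over all genes. The 3 were *Rasgrp1*, which couples the T cell receptor to RAS (-1.57 ± 0.36, limma adjusted p = 0.0134), *Il7r*, the receptor of the T cell survival factor IL-7, and *Cd69*, an early activation and residency marker. *Il7r* was at least 1.72-fold lower (limma adjusted p = 0.0205) and *Cd69* at least 1.28-fold lower (limma adjusted p = 0.033), as bounds, since no DDC array detected either. In all, 19 of the 23 were below 0 (82.6%), as were 48.3% of all genes tested. Only 1 of the 23 was detected on all 36 arrays, so signs counted over them, here and below, include levels that were not detected.

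Of 12 further NK cell and cytotoxic genes, 1 was called lower and none higher, with a median of -0.22. This was *Ccl5*, a chemokine of activated T and NK cells, at -2.02 ± 0.50 (limma adjusted p = 0.0283).

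**Figure D3:**
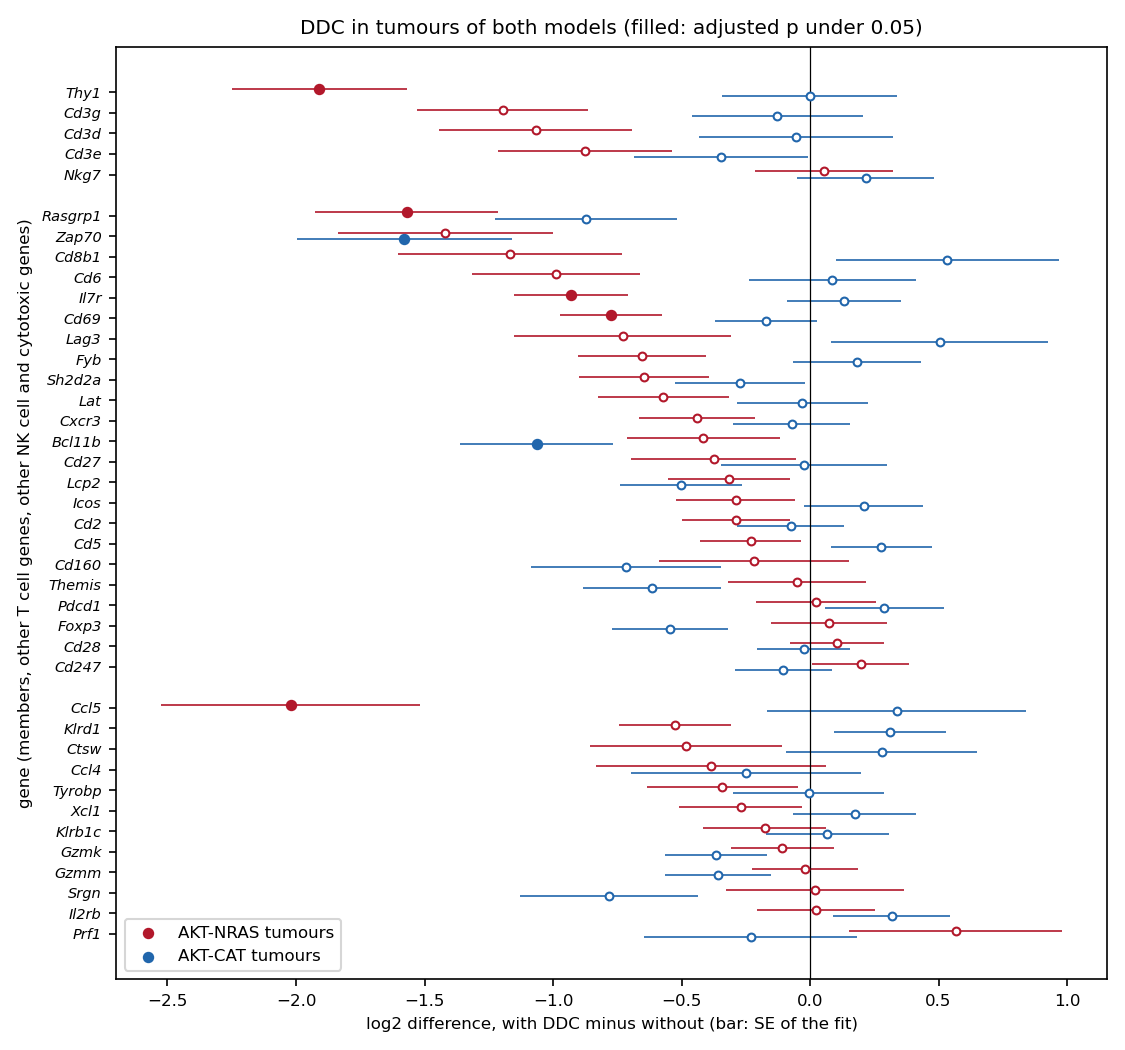
Difference with DDC minus without (horizontal axis, log2; bars, SE of the fit) in AKT-NRAS tumours (red) and AKT-CAT tumours (blue) for the 5 tested members, 23 other T cell genes and 12 other NK cell and cytotoxic genes (filled, adjusted p under 0.05). In AKT-NRAS tumours Thy1, Rasgrp1, Il7r, Cd69 and Ccl5 were called lower, and in AKT-CAT tumours Zap70 and Bcl11b.

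Markers of some other cells also lay lower in these tumours. Of 8 dendritic cell and MHC class II genes 3 were called lower (*H2-Ab1*, *Cd74* and *H2-Aa*), and their summed level was 12.8 to 14.2 without DDC and 11.1 to 12.3 with it. Of 14 fibroblast and stellate cell genes 3 were called lower (*Col3a1*, *Fbln2* and *Col1a2*), with a summed level of 13.2 to 13.9 without and 12.8 to 13.2 with DDC. None of 8 pan-leukocyte genes was called, but their summed level was 12.4 to 12.9 without and 11.7 to 11.9 with DDC. *Thy1* is carried by T cells and by fibroblasts, and the part of either in its difference was not tested.

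With DDC in AKT-CAT tumours *Thy1* differed by -0.002 ± 0.34 (limma adjusted p = 0.997), from 7.62, 7.17, 6.76 and 6.98 without DDC to 6.60, 7.004, 7.45 and 7.48 with it. The groups overlapped. The DDC difference of *Thy1* in AKT-NRAS minus that in AKT-CAT tumours was -1.91 ± 0.48 (limma test of the difference, adjusted p = 0.0238), in which contrast 1.74% of all genes were called lower. That call was lost with slide as a fixed block (-2.19, adjusted p = 0.0545) and without any of 4 arrays in turn, Tu_AKTCAT_DDC replicate 3 or 4, Tu_AKTNRAS replicate 3 or Tu_AKTNRAS_DDC replicate 2 (adjusted p from 0.0506 to 0.0637).

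For the CD3 genes the same difference between models was -1.01 ± 0.53 for *Cd3d*, -0.53 ± 0.48 for *Cd3e* and -1.07 ± 0.47 for *Cd3g*, and none was called (limma adjusted p = 0.309, 0.594 and 0.212). Under median scaling, with the median of all genes at -0.52, *Cd3d* (-1.46, adjusted p = 0.0317) and *Cd3g* (-1.57, adjusted p = 0.0174) were called, at -0.94 and -1.06 relative to that median. Within AKT-CAT tumours they differed with DDC by -0.06 ± 0.38, -0.35 ± 0.34 and -0.13 ± 0.33, with 0 of 5 members called where 13.3% of all genes were. On slide 2 alone, which held 2 arrays with and 3 without DDC of these tumours, the differences were 0.29, -0.43 and 0.03, and that of *Thy1* was 0.28 (a fit within the slide, chosen after the data were seen, with limma adjusted p from 0.456 to 0.965). Over all AKT-CAT tumour arrays, 15 of the 23 further T cell genes were below 0 with DDC (65.2%), as were 47.6% of all genes. Of the 23, 0 were called higher and 2 lower, *Zap70* and *Bcl11b*.

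Under CCl4 *Thy1* fell in AKT-CAT tumours against non-tumoral liver. Its levels were 8.45, 8.91, 8.76 and 8.72 in NonTu_AKTCAT_CCl4 and 7.33, 6.38, 8.43 and 6.81 in Tu_AKTCAT_CCl4, and the groups did not overlap (as 7.48% of all genes did not in this direction), although tumour replicate 3 came close to the lowest non-tumoral array. *Thy1* fell by 1.47 ± 0.34 on the log2 scale (SE of the fit), 2.77-fold, in the tumours (limma adjusted p = 0.00265), where 7.40% of all genes were called lower. Median scaling ended the call at -0.94 (adjusted p = 0.0595), with the median of all genes at 0.27 and *Thy1* at -1.21 relative to it.

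None of the CD3 genes was called here. *Cd3d* differed by -0.31 ± 0.38, *Cd3e* by 0.04 ± 0.34 and *Cd3g* by 0.79 ± 0.33, higher in the tumours (limma adjusted p = 0.655, 0.955 and 0.109). *Cd3g* stood at 5.48, 5.05, 7.04 and 5.98 in the tumours, 3 of 4 detected, and at 4.96, 5.22, 4.84 and 5.36 in the non-tumoral liver, 1 of 4 detected. It was called higher only when Tu_AKTCAT_CCl4 replicate 2, its lowest tumour array, was left out (1.07, adjusted p = 0.038). *Nkg7* lay higher in the tumours with no overlap, as 8.56% of all genes did, at means of 5.21 and 4.71 (limma adjusted p = 0.231), but with 1 of 4 tumour arrays and 0 of 4 others detecting it no fold is given.

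Replicate 3 of the CCl4 tumours was the highest of its group for all 5 genes, and replicate 2 the lowest for all 5. In the same comparison the summed level of the 14 fibroblast and stellate cell genes was 13.6 to 13.8 in non-tumoral liver and 12.4 to 13.2 in tumours, and 3 of the 14 were called lower (*Reln*, *Dcn* and *Des*). The pan-leukocyte sum overlapped, at 11.64 to 13.02 in non-tumoral liver and 11.5 to 12.5 in tumours, with 0 of 8 genes called. Markers of other cells were called lower as well, 8 of 13 for macrophages and Kupffer cells, 5 of 10 for neutrophils, 3 of 10 for endothelium and 5 of 10 for hepatocytes. Other lists went the other way, with 1 of 8 dendritic cell and MHC class II genes called higher (*Cd74*, 1.84 ± 0.35; median of the list 0.33; summed level 12.8 to 14.3 in tumours and 11.3 to 12.4 in non-tumoral liver) and 1 of 5 cholangiocyte genes (*Sox9*, 1.85 ± 0.49). The part of these cells in the *Thy1* difference was not tested. Of the 23 further T cell genes *Themis*, a thymocyte selection protein, was called higher (at least 1.23-fold, limma adjusted p = 0.00159), and *Zap70* and *Cd247*, the receptor's kinase and zeta chain, lower.

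*Thy1* also lay higher in NonTu_AKTCAT_CCl4 than in untreated NonTu_AKTCAT, with no overlap (0.82 ± 0.37, limma adjusted p = 0.118), as did 12.7% of all genes. Median scaling called it higher (1.17, adjusted p = 0.0475), at 0.97 relative to the median of all genes of 0.20. *Nkg7* went the other way and fell. It stood at 5.98, 6.28 and 4.77 in untreated non-tumoral liver, 2 of 3 detected, and at 4.98, 4.54, 4.42 and 4.91 under CCl4, none detected. It was at least 1.16-fold lower (limma adjusted p = 0.0178), where 8.21% of all genes were called lower, but NonTu_AKTCAT replicate 3 lay within the CCl4 range. The call was lost without NonTu_AKTCAT replicate 1 or 2 or NonTu_AKTCAT_CCl4 replicate 3 (adjusted p = 0.0969, 0.165 and 0.0552), when only these 2 groups were fitted (0.135) and under median scaling (0.21).

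Whether the effect of the tumour itself differed under an injury was tested for each gene. With DDC minus without, the tumour differences changed by between -0.43 ± 0.51 (*Cd3g*) and 0.35 ± 0.41 (*Nkg7*), with 0 of 5 called against 3.46% of all genes. With CCl4 minus without they changed by between -0.71 ± 0.50 (*Thy1*) and 1.07 ± 0.40 (*Nkg7*, limma adjusted p = 0.384, detected on none of the NonTu_AKTCAT_CCl4 arrays), with 0 of 5 called against 0.139% of all genes.

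Without CCl4, AKT-CAT tumours had lower means of all 5 genes than non-tumoral liver, and none was called, where 11.2% of all genes were. *Cd3d* came nearest, at 5.83, 5.39, 5.20 and 5.17 in tumours and 6.66, 7.01 and 5.70 in non-tumoral liver (-1.06 ± 0.41, limma adjusted p = 0.0911), and NonTu_AKTCAT replicate 3 overlapped the tumours. Without that library *Cd3d* (-1.44, adjusted p = 0.0339) and *Nkg7* (-1.03, adjusted p = 0.0163) were called. On slide 3, which held 1 tumour array beside the 3 non-tumoral ones, *Cd3d* differed by -1.28 and *Thy1* by -0.91 (fits within the slide, chosen after the data were seen, limma adjusted p = 0.492 and 0.536).

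Under DDC the AKT-CAT tumours again had lower means of all 5 genes than DDC-treated non-tumoral liver. *Cd3d* (-0.93 ± 0.41), *Cd3g* (-0.56 ± 0.36) and *Thy1* (-0.78 ± 0.37) did so with no overlap of the arrays, where 18.8% of all genes did not overlap in one direction or the other, and 0 of 5 members were called against 5.77% of all genes (limma adjusted p = 0.169, 0.378 and 0.205). *Cd3d* was 4.85, 4.99, 5.56 and 5.98 in the tumours and 6.11, 6.51 and 6.21 in the non-tumoral liver. Within slide 2 the differences of the 3 genes were smaller, at -0.51, -0.41 and -0.45. That of *Cd3e* was -0.67 there, against -0.71 over all arrays. *Nkg7* changed sign, from -0.23 over all arrays to 0.19 within slide 2, and also to 0.19 with slide as a fixed block.

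The 2 tumour models differed in *Thy1* in opposite directions without and with DDC. Untreated AKT-NRAS tumours were higher than untreated AKT-CAT tumours by 0.94 ± 0.34, 1.92-fold, with no overlap, as for 19.6% of all genes in this direction (limma adjusted p = 0.0278), in a comparison in which 20.6% of all genes were called higher. DDC-treated AKT-NRAS tumours were 1.95-fold lower than DDC-treated AKT-CAT tumours (-0.96 ± 0.34, with overlap, limma adjusted p = 0.0233), where 18.3% of all genes were called lower. Neither call held against single libraries. The first was lost without Tu_AKTCAT replicate 3 or 4 or Tu_AKTNRAS replicate 3 (adjusted p from 0.0628 to 0.106), the second without Tu_AKTCAT_DDC replicate 3 or 4 or Tu_AKTNRAS_DDC replicate 2 or 3 (adjusted p from 0.0528 to 0.109). Each model lay on its own slides, and the 2 cannot be told apart.

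Among the CD3 genes the models differed by between -0.01 ± 0.34 (*Cd3e*) and 0.56 ± 0.33 (*Cd3g*) without DDC, and by between -0.54 ± 0.34 (*Cd3e*) and -0.51 ± 0.33 (*Cd3g*) with it, with none called. Under median scaling, which moved the median of all genes to 0.42, *Cd3d* and *Cd3g* of untreated tumours were called higher and *Nkg7* lower. In the untreated comparison 7 of 14 fibroblast and stellate cell genes were called higher in AKT-NRAS tumours, led by *Col3a1* (3.35 ± 0.36), as were 4 of 8 pan-leukocyte genes, led by *Cd53* (1.62 ± 0.30). Of the 23 further T cell genes 2 were called higher and 4 lower. Also called higher were 3 of 8 dendritic cell, 3 of 10 neutrophil and 4 of 13 macrophage genes (2 lower), and 4 of 10 endothelial genes were called lower. Under DDC, where *Thy1* was the lower in AKT-NRAS tumours, 4 of 14 fibroblast and stellate cell genes were called higher and 1 lower (median 0.45), 3 of 8 dendritic cell genes lower, and 1 of 8 pan-leukocyte genes in each direction. The part of these cells in the 2 differences of *Thy1* was not tested.

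DDC without driver genes left all 5 genes uncalled against PBS liver, where 22.7% of all genes were called, and the groups overlapped for each, where 35.6% of all genes did not overlap. The differences ran from -0.35 ± 0.38 (*Cd3g*) to 0.32 ± 0.39 (*Thy1*). In non-tumoral AKT-CAT liver the 5 genes differed with DDC by between -0.18 ± 0.43 (*Cd3d*) and 0.30 ± 0.38 (*Cd3g*), with 0 called against 18.1% of all genes. With slide as a block these ran from -0.84 ± 0.48 (*Nkg7*) to 0.32 ± 0.68 (*Cd3g*), with 0 called, and the count over all genes went from 1948 to 283. With CCl4 in AKT-CAT tumours they differed by between -0.34 ± 0.34 (*Cd3e*) and 0.37 ± 0.33 (*Cd3g*), with 0 called against 8.29%.

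Against PBS liver, none of the 5 genes was called in untreated AKT-CAT tumours (30.1% of all genes called), in untreated AKT-NRAS tumours (26.2% called higher and 23.8% lower) or in untreated non-tumoral AKT-CAT liver (15.1%). *Cd3g* lay lower in AKT-CAT tumours with no overlap (-0.60 ± 0.36, limma adjusted p = 0.214), as did 15.7% of all genes. *Thy1* differed by 0.74 ± 0.37 in AKT-NRAS tumours (limma adjusted p = 0.0954). It was called higher under median scaling (1.60, or 1.21 relative to the median of all genes, adjusted p = 0.000949) and when only these 2 groups were fitted (adjusted p = 0.0437). *Nkg7* was at least 1.18-fold higher in non-tumoral AKT-CAT liver, as a bound, since no PBS array detected it (limma adjusted p = 0.106), and it passed without NonTu_AKTCAT replicate 3 (adjusted p = 0.00881). With slide as a block none of the 5 genes was called in AKT-CAT tumours or in non-tumoral liver, where the count over all genes went from 3240 to 1013 and from 1621 to 0. These 3 comparisons share the 3 PBS arrays. Of the comparisons with 0 members called, AKT-CAT tumours against non-tumoral liver had 2 members with an unadjusted limma p under 0.05 without injury and 2 under DDC, non-tumoral AKT-CAT liver against PBS had 1, and the others had 0.

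**Figure D4:**
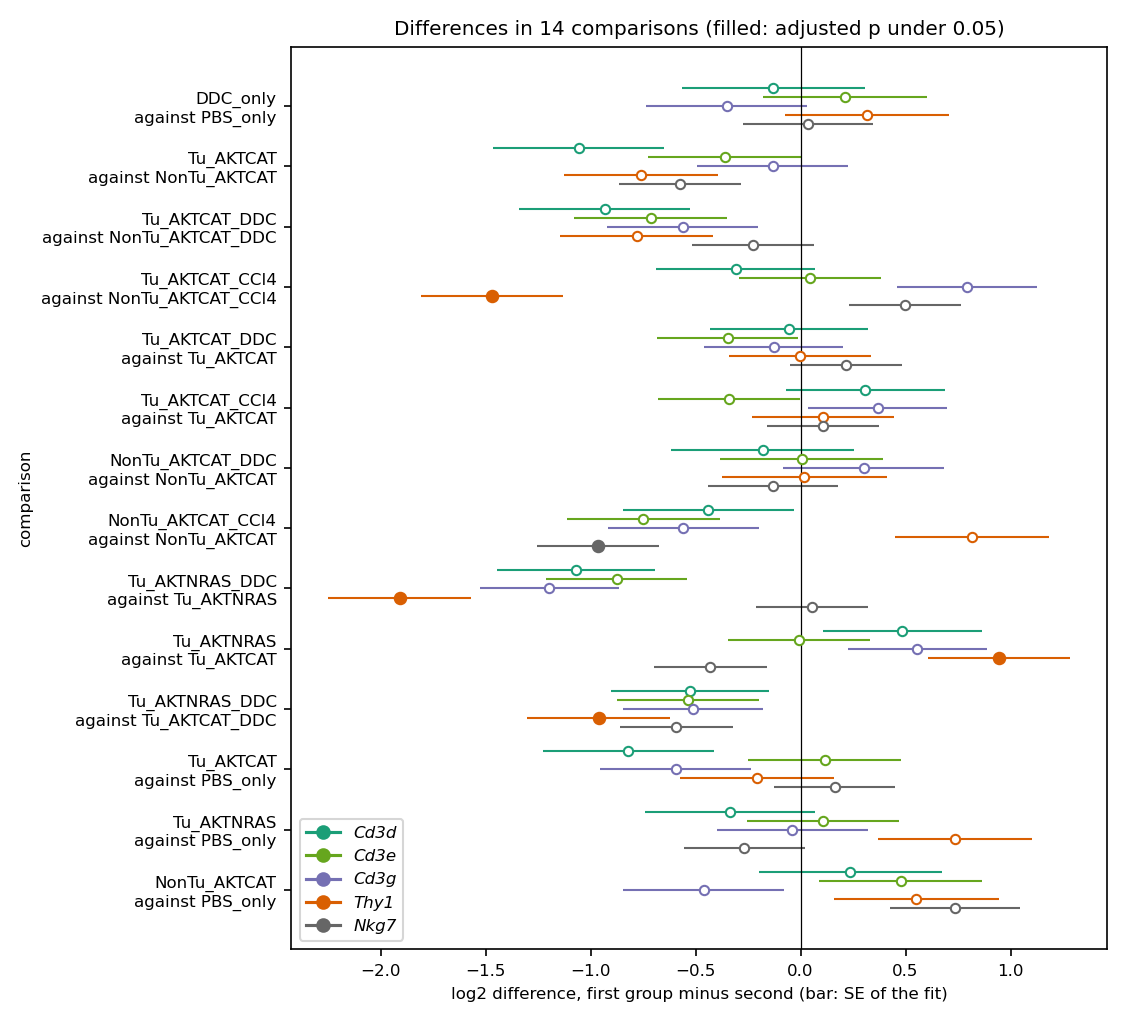
Differences of the 5 tested genes in 14 comparisons (horizontal axis, log2 of the first group minus the second; bars, SE of the fit; filled points, adjusted p under 0.05). Thy1 was called in 4 comparisons, Nkg7 in 1 and the CD3 genes in none.

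Within groups the levels of the T cell genes deviated together from array to array. Each array's deviation from its group mean was correlated over the 36 arrays for the 10 pairs of tested genes, with 100000 permutations within groups (two-sided) and adjustment over the 10 pairs. *Cd3g* and *Thy1* were the closest pair (Pearson r = 0.774, adjusted permutation p = 0.0004, Spearman rho = 0.679, adjusted permutation p = 0.0014). Without the 2 arrays farthest from the median of *Cd3g* r was 0.684, and within slides 1, 2, 4 and 5 it was 0.706, 0.82, 0.729 and 0.852. Slide 3, with 4 arrays, was too small for a value. Deviations were taken from the mean of the whole group, also for Tu_AKTCAT_DDC (slides 1 and 2) and Tu_AKTCAT (slides 2 and 3). All values for slides 1 and 2 can therefore still hold differences between slides, and the permutations moved arrays of these groups across slides.

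The pairs among the 3 CD3 genes came next to it. *Cd3e* and *Cd3g* gave r = 0.691 (adjusted permutation p = 0.00142) and rho = 0.648 (adjusted permutation p = 0.0021), with 0.559 without the 2 farthest arrays, and 0.375, 0.135, 0.818 and 0.929 within slides 1, 2, 4 and 5. *Cd3d* and *Cd3e* gave r = 0.655 (adjusted permutation p = 0.00177) and rho = 0.66 (adjusted permutation p = 0.0021), with 0.687 without the 2 farthest, and 0.415, 0.537, 0.922 and 0.579 within those slides. *Cd3d* and *Cd3g* gave r = 0.626 (adjusted permutation p = 0.00152) and rho = 0.6 (adjusted permutation p = 0.00278), with 0.616 without the 2 farthest, and 0.477, 0.628, 0.874 and 0.632 within slides. All 3 pairs were above 0 on each slide, and the *Cd3e* and *Cd3g* pair was weak on slide 2.

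*Thy1* also went with *Cd3e* (r = 0.623, adjusted permutation p = 0.00177, rho = 0.529, adjusted permutation p = 0.00794) and with *Cd3d* (r = 0.604, adjusted permutation p = 0.00142, rho = 0.589, adjusted permutation p = 0.0021). Without the 2 farthest arrays these were 0.5 and 0.611, and within slides 1, 2, 4 and 5 they were 0.576, 0.45, 0.449 and 0.933 for *Cd3e* and 0.907, 0.833, 0.472 and 0.616 for *Cd3d*. *Nkg7* was tied to *Cd3d* (r = 0.584, adjusted permutation p = 0.00142, rho = 0.561, adjusted permutation p = 0.00278, 0.564 without the 2 farthest, and 0.55, 0.386, 0.366 and 0.795 within slides). *Nkg7* was detected on 12 of the 36 arrays, so most of its deviations were of levels that were not detected. With *Cd3e* its r passed (0.455, adjusted permutation p = 0.037) and its rho did not (0.388, adjusted permutation p = 0.0735), and r fell below 0 on slide 2. With *Cd3g* (r = 0.273, adjusted permutation p = 0.2) and *Thy1* (r = 0.185, adjusted permutation p = 0.31) r did not pass. The genes of an array share its slide, amplification and scan, and what part these have in the shared deviations was not tested.

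**Figure D5:**
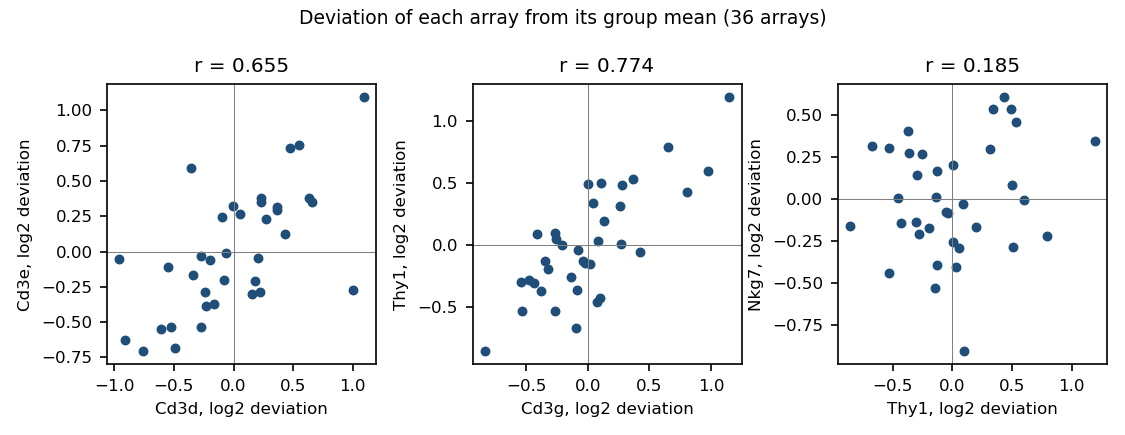
Deviation of each of 36 arrays from its group mean (both axes, log2) for 3 pairs of genes. Cd3d and Cd3e (r = 0.655) and Cd3g and Thy1 (r = 0.774) deviate together, and Thy1 and Nkg7 give r = 0.185.

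Across all 36 arrays, with group differences left in, the genes most like each member were found by Pearson r, as a description. The search ran over the 10765 genes with the members themselves left out. Nearest to *Cd3d* were *Nrros* (0.888), *Rac2* (0.832) and *Rasgrp1* (0.805), and nearest to *Cd3e* were *Rasgrp1* (0.778), *Fam78a* (0.747) and *Cd6* (0.705), a T cell surface receptor. *Cd3g* was most like *H2-Ab1* (0.77), the MHC class II beta chain, *H2-DMa* (0.764) and *Gimap7* (0.749). *Thy1* was most like *Gngt2* (0.71), *Clec7a* (0.701), a myeloid receptor of fungal glucans, and *Prkcb* (0.7), and *Nkg7* was most like *Sorcs3* (0.771), *Slc6a9* (0.709) and *Spic* (0.693), a transcription factor of red pulp macrophages. *Rasgrp1* was thus the 1 gene named for 2 members.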

How the data were processed

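Total RNA was extracted with a column kit and amplified to biotin-labelled cRNA, per the labels' protocols. The table of probe intensities deposited by the authors was not normalized, came from GenomeStudio per the submitters' processing notes (version not given in the sources used here), and held values below 0, so a background had been subtracted. Detection p-values were deposited in the same table, in columns named by slide, and each was tied to its sample because it followed the order of that sample's intensities with 0 steps out of order, against at least 7714 for any other column. A second table deposited by the authors, the series value table, holds linear intensities that are nearly as quantile normalization leaves them (method not given in the sources used here), and served as an alternative.

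Background correction and quantile normalization of the intensities used neqc of limma (offset 16, control statistics inferred from the detection p-values). Probes detected on at least 3 arrays and naming 1 gene were kept (14754). Where a gene had several (2834 genes), the probe with the highest mean was used, which left 10765 genes. One limma fit over 10 groups without further terms gave 14 comparisons and 3 differences of effects, two-sided, adjusted with Benjamini-Hochberg over these genes. Where no array of the lower group detected a probe, the fold is a bound against the lowest detected level of each array (4.96 to 5.54 log2).

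The members and gene lists were chosen with earlier results of these data known. Every member was named, with up to 4 called genes of a list in order of size, and the 3 genes most like each member. Summed levels are log2 of the sum of a list's linear normalized intensities. Promoters were matched by symbol, to RefSeq windows of GRCm38.p6. Alternatives were median scaling, an offset of 50, no and a stricter detection filter, the mean over probes, only the compared groups, the series value table, slide or replicate number as a block, a trended variance prior, each replicate left out and, chosen after the data were seen, fits within a slide. The code was tested on simulated data. Tools were R 4.3.3, limma 3.58.1, Python 3.11.15, numpy 2.4.6, pandas 2.3.3, scipy 1.17.1 and matplotlib 3.10.9.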

Additional observations from a re-analysis of the deposited data

Results flagged for a closer look

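The DDC difference of *Thy1* differed between the tumours of the 2 models, in a call that some alternatives ended. AKT-NRAS minus AKT-CAT tumours gave -1.91 on the log2 scale by limma's test of the difference itself (adjusted p = 0.0238), with all 4 AKT-NRAS arrays under DDC below all 4 without it and overlapping groups in AKT-CAT tumours. It did not pass with a fixed slide block (adjusted p = 0.0545) nor without any of 4 single arrays, Tu_AKTCAT_DDC replicate 3 or 4, Tu_AKTNRAS replicate 3 or Tu_AKTNRAS_DDC replicate 2 (limma adjusted p from 0.0506 to 0.0637). Dixon's test flagged no array as far from its group in any of 30 combinations of a tested gene and a group of 4 arrays. With so few arrays it can flag only extreme values, and groups of 3 arrays were not tested. It therefore does not bear on the calls lost without single arrays.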

How the results depend on the processing

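The number of members called is the measure here, with 0 or 1 of 5 in each comparison. Median scaling gave 0 for CCl4-treated AKT-CAT tumours against non-tumoral liver, 4 for DDC in AKT-NRAS tumours, 4 for AKT-NRAS against AKT-CAT tumours (3 higher and 1 lower), 2 for the same under DDC (*Thy1* and *Nkg7*), 1 for AKT-NRAS tumours against PBS (*Thy1*) and 3 for the difference of the DDC effects (*Thy1*, *Cd3d* and *Cd3g*). It left 1 for CCl4 in non-tumoral liver, *Thy1* higher in place of *Nkg7* lower. Fitting only the compared groups gave 0 for CCl4 in non-tumoral liver, 2 for DDC in AKT-NRAS tumours and 1 for AKT-NRAS tumours against PBS. The stricter detection filter (p under 0.01 on at least 9 arrays) left *Nkg7* untested and so gave 0 for CCl4 in non-tumoral liver. Slide as a fixed block gave 0 for the difference of the DDC effects, and the authors' series value table gave 1 for non-tumoral AKT-CAT liver against PBS.

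Leaving out each replicate gave 0 to 2 members called for AKT-CAT tumours against non-tumoral liver, 1 to 2 for the same under CCl4, 0 to 1 for CCl4 in non-tumoral liver, 1 to 2 for DDC in AKT-NRAS tumours, 0 to 1 for AKT-NRAS against AKT-CAT tumours, 0 to 2 for the same under DDC, 0 to 1 for non-tumoral AKT-CAT liver against PBS and 0 to 1 for the difference of the DDC effects. Of the single genes, 1598 values kept their side of the threshold, 18 lost it and 22 gained it, and none that was called changed sign. An offset of 50, no detection filter, the mean over probes, a trended variance prior and slide as a random block changed none of these calls.

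Replicate numbers did not pair the samples: in 0 of 14 comparisons did every same-numbered pair correlate above 0.1 in its deviations. With the replicate number as a block *Thy1* under DDC in AKT-NRAS tumours was at -1.91 (limma adjusted p = 0.00168), and no call of a member changed. Counts over all genes moved more, in each case with the lowest and highest over the alternatives in brackets. They were 1205 for AKT-CAT tumours against non-tumoral liver (41 to 1761), 621 for the same under DDC (4 to 1050), 1641 for the same under CCl4 (1029 to 2528), 1428 for DDC in AKT-CAT tumours (0 to 2314) and 892 for CCl4 in AKT-CAT tumours (345 to 1054). They were 1948 for DDC in non-tumoral liver (283 to 4338), 2041 for CCl4 in non-tumoral liver (687 to 2198), 209 for DDC in AKT-NRAS tumours (75 to 521), 3240 for AKT-CAT tumours against PBS (1013 to 3311) and 1621 for non-tumoral AKT-CAT liver against PBS (0 to 1813). For contrasts of effects they were 372 for the change of the tumour effect with DDC (85 to 413), 15 for the change of the tumour effect with CCl4 (0 to 46) and 369 for the difference of the DDC effects (80 to 2792). For *Cd4*, *Cd8a*, *Gzma* and *Gzmb* the signal over background sets the limit, and a difference between groups was not detectable.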

Other observations

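*Zap70*, the kinase that binds the phosphorylated CD3 chains, was the T cell gene called most often. It was called lower in 9 of 14 comparisons, several of which share a group, and higher in none. Its level was 10.02 ± 1.11 (SD, n = 3) in PBS_only, 9.66 ± 0.29 (SD, n = 4) in NonTu_AKTCAT_CCl4 and 9.55 ± 0.25 (SD, n = 3) in NonTu_AKTCAT. It was 6.35 ± 0.12 (SD, n = 3) in DDC_only, 6.18 ± 0.49 (SD, n = 4) in Tu_AKTNRAS and 4.76 ± 0.16 (SD, n = 4) in Tu_AKTNRAS_DDC, where no array detected it. The DDC difference of *Zap70* in AKT-NRAS tumours was not called (-1.42 ± 0.42, limma adjusted p = 0.0735). In AKT-CAT tumours it was called lower (-1.58 ± 0.42, limma adjusted p = 0.012). With DDC alone it fell by 3.67 ± 0.48 on the log2 scale against PBS (limma adjusted p = 1.19e-06), where 22.7% of all genes were called. *Cd3d*, *Cd3e*, *Cd3g* and *Thy1* were not called in that comparison, and whether *Zap70* followed T cells here was not tested. *Cd8b1*, the beta chain of CD8, rose there by 1.64 ± 0.50 (limma adjusted p = 0.0168), while *Cd8a* was not detected on any array.

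*Themis* was called in 6 of 14 comparisons, higher in 4 and lower in 2. Its tumour difference changed by -1.76 ± 0.41 with DDC against without (limma adjusted p = 0.0114), the 1 call among the 23 further T cell genes in that contrast.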
